A study of Homo sapiens with 8 samples.

Results

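The 9 genes described here are interferon-associated antiviral genes that human embryonic stem cells express without stimulation: PLSCR1, BST2, IFITM1, IFITM2, IFITM3, STAT2, IRF3, B2M and ISG15. They were picked by name, and all 9 were found among the 11644 genes of the day 2 table and the 14070 genes of the day 0 table. All 9 also passed the low-count filter at day 2. Since they were chosen with their levels and some of their genotype differences already known, their presence is not a finding, and the adjusted p-values below describe these libraries and are not independent support.

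RNA came from the H1 line, established human embryonic stem cells, either wild type or SETD7 knockout. SETD7 is a lysine methyltransferase of histone H3 and of other proteins. Day 0 had 1 library per genotype, given as FPKM (fragments scaled to transcript length and library depth), and day 2 of hematopoietic differentiation, which directs the cells towards blood, had 3 libraries per genotype, given as counts. The sources used here do not give the factors of the protocol, how the knockout was made or whether it is 1 clone. Nor do they call the replicates separate cultures, so p-values cover only differences among these samples, and these may be technical. Day 2 libraries held 27880068 to 39553614 counts, and the depth at day 0 is unknown. Counts of any pair of libraries differed by more than sampling noise, with a chi-square over its degrees of freedom of 3.04 to 8.90 within a genotype, highest for knockout replicates 1 and 2, and 11.3 to 21.5 across genotypes. SETD7 mRNA, the check of the labels, was 3.53 FPKM in wild type at day 0 against 1.48 FPKM in the knockout. The day 2 values were 54.8, 56.2 and 55.6 CPM (counts scaled by TMM to a common library size) in wild-type replicates 1, 2 and 3 and 32.9, 28.9 and 33.7 CPM in knockout replicates 1, 2 and 3, lower in each knockout library but not absent.

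Interferons bind cell surface receptors whose JAK kinases phosphorylate STAT proteins. STAT2 and IRF9 are parts of a complex that binds the interferon-stimulated response element (ISRE) in promoters of interferon-stimulated genes, while IRF3, switched on by sensors of foreign nucleic acid, induces interferon itself and some of the same genes. Pluripotent stem cells respond weakly to interferon and are known to keep a subset of these genes on without it, IFITM genes among them. At day 2, RNA of all 11 listed pluripotency markers and of all 9 primitive streak and mesoderm markers passed the filter. Of 10 blood and immune markers, only CD74 and RUNX1 did, with a summed level of 42.2 to 48.1 CPM in wild type and 43.2 to 46.1 CPM in the knockout. A gene not tested, here and below, may be missing from the deposited day 2 table, whose gene filter is not known. Not being tested is therefore no measured lack of RNA.

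In the knockout at day 2, PLSCR1 fell by 53.9%, BST2, ISG15 and IRF3 rose, and the other 5 genes did not pass the test (adjusted p under 0.05, which 23.3% of all 11475 genes tested passed). The pattern at day 0 was another: BST2 was 3.61-fold lower in the knockout library, PLSCR1 was higher by 18.8%, and 7 of the 9 genes had the lower value in the knockout, as 53.8% of all genes did. The day 0 differences rest on 1 library per genotype and have no replicate check.

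The promoters are shown for the letters that several members share. The members were picked as interferon-associated, and the ISRE lies in promoters of interferon-stimulated genes. Its presence below thus follows from the choice and is not a finding. RefSeq promoters (GRCh38.p14) were matched for 7 of the 9 genes. The 250 bases before each start were searched on both strands for the ISRE core, GAAA followed by any 2 bases and GAAA again. This core lay in 6 of the 7 (PLSCR1, BST2, ISG15, IFITM1, IFITM3 and B2M), and in 3.02% of all 35116 promoter entries. The 150 bases before each start are printed 5′ to 3′ on the strand of the gene, with the core in capitals.
PLSCR1 (chr3:146544608-146544757, minus strand): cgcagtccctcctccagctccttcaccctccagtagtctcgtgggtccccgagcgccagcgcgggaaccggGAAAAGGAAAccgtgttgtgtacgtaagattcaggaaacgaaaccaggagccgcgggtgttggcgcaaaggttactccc
BST2 (chr19:17405631-17405780, minus strand): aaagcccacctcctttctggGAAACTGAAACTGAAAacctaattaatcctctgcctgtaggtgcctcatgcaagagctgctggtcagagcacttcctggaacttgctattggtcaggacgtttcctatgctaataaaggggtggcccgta
ISG15 (chr1:1013347-1013496, plus strand): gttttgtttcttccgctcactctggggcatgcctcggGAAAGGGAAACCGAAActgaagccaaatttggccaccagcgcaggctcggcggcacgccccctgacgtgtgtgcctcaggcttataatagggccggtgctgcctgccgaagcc
IFITM1 (chr11:313890-314039, plus strand): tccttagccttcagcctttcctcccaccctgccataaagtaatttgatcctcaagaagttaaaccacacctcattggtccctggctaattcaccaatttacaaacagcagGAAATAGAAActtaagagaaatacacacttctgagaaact
IFITM3 (chr11:320861-321010, minus strand): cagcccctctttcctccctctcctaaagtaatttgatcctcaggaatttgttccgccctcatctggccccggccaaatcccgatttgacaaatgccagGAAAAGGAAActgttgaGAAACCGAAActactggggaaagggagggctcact
B2M (chr15:44711367-44711516, plus strand): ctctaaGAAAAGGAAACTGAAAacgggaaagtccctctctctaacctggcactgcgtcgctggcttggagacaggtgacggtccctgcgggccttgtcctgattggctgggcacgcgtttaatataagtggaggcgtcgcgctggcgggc

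BST2, ISG15, IFITM3 and B2M held 2 matches each, which shared 4 bases in BST2, ISG15 and B2M and lay apart in IFITM3, while PLSCR1 and IFITM1 held 1. The matches began 79 bases before the start in PLSCR1, 130 and 124 in BST2, 113 and 107 in ISG15, 40 in IFITM1, 52 and 35 in IFITM3 and 144 and 138 in B2M. The STAT2 window held no match. TTCNNNGAA, the core of the gamma-activated site bound by STAT dimers, was in 6.57% of all entries. Among the members it was in IFITM1, 12 bases before the start, and in BST2, at 136 and 58 bases, the former overlapping an ISRE match. The 6 genes with the ISRE core moved in different directions at day 2: PLSCR1 fell, BST2 and ISG15 rose, and IFITM1, IFITM3 and B2M did not pass. Of the 271 tested genes with the core, members left out, 16.2% were called higher and 9.59% lower in the knockout. The shares were 11.8% and 11.1% over all 9075 tested genes with a promoter entry.

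The IFITM proteins sit in plasma and endosomal membranes and hinder the fusion of enveloped viruses with the cell. Their genes lie together on chromosome 11 (GRCh38, GENCODE 29): IFITM2 at 307631 to 315272 and IFITM1 at 313506 to 315272 on the plus strand, and IFITM3 at 319669 to 327537 on the minus strand. At day 0, IFITM1 was the most abundant member, 278 FPKM in wild type and 205 FPKM in the knockout. IFITM3 was 107 FPKM in wild type and 95.0 FPKM in the knockout, and IFITM2 92.8 FPKM in wild type and 73.8 FPKM in the knockout. All 3 were lower in the knockout library, with log2 ratios (of FPKM + 1) of -0.44, -0.17 and -0.33, and none reached 1.5-fold.

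At day 2, IFITM1 was 44.6, 42.3 and 44.5 CPM in wild type and 45.0, 49.8 and 47.3 CPM in the knockout, replicates 1, 2 and 3 in that order here and below. The knockout libraries all lay above the wild-type ones, by little, and the gene did not pass (log2 fold change 0.11, SE 0.055, edgeR adjusted p 0.135). With knockout replicate 1 left out it did (edgeR adjusted p 0.0484, log2 fold change 0.15). IFITM2 was 31.9, 34.2 and 34.2 CPM in wild type and 28.1, 36.3 and 29.7 CPM in the knockout, so knockout replicate 2 was the highest of the 6 libraries and the other two knockout libraries were the lowest. It did not pass (-0.09, SE 0.074, edgeR adjusted p 0.394), but did with knockout replicate 2 left out (-0.21, edgeR adjusted p 0.0219). IFITM3 was 66.1, 63.8 and 66.8 CPM in wild type and 56.5, 64.9 and 66.1 CPM in the knockout, overlapping except for knockout replicate 1, which was the lowest (-0.07, SE 0.052, edgeR adjusted p 0.353). The 3 genes are close copies, and IFITM1 and IFITM2 share 351 bases of annotated exons on the same strand, so how the authors' counting assigned shared reads makes each value uncertain. IFITM3 also shares 287 exon bases with a non-coding RNA gene on the other strand. Of the 50-base windows of 1 coding IFITM1 transcript, 12.3% also occur in an IFITM3 transcript and 6.29% in an IFITM2 transcript. For 100-base windows the shares are 5.64% and 0.0%. Counted as 1 gene, the 3 together stood at -0.02 on the log2 scale (SE 0.043, edgeR adjusted p 0.83).

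BST2 (tetherin, chromosome 19, 17402939 to 17405648, minus strand) is a membrane protein that holds budding virus particles on the cell surface. At day 0 it was 142 FPKM in wild type and 39.5 FPKM in the knockout, ranking 2 among the members in wild type and 4 in the knockout. Its log2 ratio of -1.82 was the only member difference past 1.5-fold, where 13.6% of the 13280 genes with at least 1 FPKM passed that fold in either direction and 8.77% downwards. BST2 had the 30th lowest ratio of these 13280, and the lowest of the 582 genes with 100 FPKM or more in a library. At day 2 the gene was 8.72, 10.2 and 10.8 CPM in wild type and 13.0, 14.6 and 16.2 CPM in the knockout. Each knockout library lay above each wild-type library. The rise from 9.92 ± 1.08 to 14.6 ± 1.60 CPM (SD, n = 3) was 1.46-fold (log2 fold change 0.55, SE 0.101, edgeR adjusted p 0.000105), and BST2 was called in all 13 alternatives. The direction was opposite to that of the day 0 libraries. Of its tested neighbours within 100000 bases, MVB12A, 74 bases away on the other strand, did not pass at day 2 (-0.17, edgeR adjusted p 0.0713), and ANO8, 68110 bases away, did (0.20, edgeR adjusted p 0.028).

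**Figure D1:**
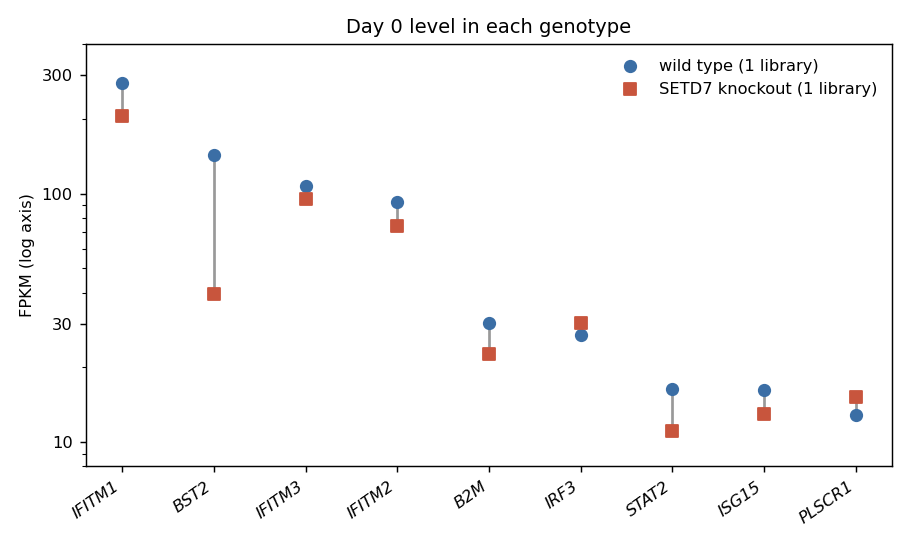
Level of the 9 genes at day 0 in FPKM (log axis), wild type and SETD7 knockout, 1 library each, so there is no error bar. BST2 has the widest gap, 142 against 39.5 FPKM, and IRF3 and PLSCR1 are the 2 genes whose knockout value is the higher one.

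PLSCR1 (chromosome 3, 146515180 to 146544864, minus strand) encodes a phospholipid scramblase that is itself induced by interferon and restricts several viruses. At day 0 it was 12.9 FPKM in wild type and 15.3 FPKM in the knockout, the least abundant member in the former (log2 ratio 0.23). At day 2, in another unit, PLSCR1 was 191, 182 and 184 CPM in wild type and 84.4, 83.4 and 89.5 CPM in the knockout. The genotypes were far apart and the replicates of each close together. The fall from 186 ± 4.58 to 85.8 ± 3.30 CPM (SD, n = 3) was -1.12 on the log2 scale (SE 0.039, edgeR adjusted p 1.43e-21), the smallest p-value of all 11475 genes tested. PLSCR1 was called in all 13 alternatives, between -1.15 and -1.10. Called genes at least 2-fold lower made up 0.122% of those tested, and 10 of them fell more. Per kilobase of merged exons of coding transcripts, PLSCR1 was the most abundant member in wild type at day 2 (83.3 ± 2.05 CPM per kilobase, SD, n = 3). In the knockout it ranked 3 (38.4 ± 1.48), below IFITM3 (51.6 ± 4.29) and IFITM1 (45.5 ± 2.31). No other tested gene lay within 100000 bases of PLSCR1.

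The 5 genes with at least 5 CPM whose day 2 profile was most like that of PLSCR1 were HOXB6, TM7SF2, SETD7, WNT5B and RAD51C, out of 10177 compared. Likeness was the root mean square distance between log2 CPM profiles, each centred on its mean, over the 6 libraries, and ran from 0.085 for HOXB6 to 0.173 for RAD51C. The 6 libraries span both genotypes, so the falls in the knockout given next follow from this choice and are no separate finding. HOXB6, a homeobox gene, fell from 25.7 ± 2.00 to 12.1 ± 0.796 CPM, and TM7SF2, a sterol reductase, from 23.8 ± 1.32 to 11.6 ± 0.626 CPM (SD, n = 3). WNT5B, a Wnt ligand, fell from 10.8 ± 0.361 to 6.15 ± 0.231 CPM and RAD51C, a gene of recombination repair, from 13.6 ± 1.85 to 6.21 ± 0.705 CPM. At day 0, RAD51C was 6.27 FPKM in wild type and 8.51 FPKM in the knockout, higher in the knockout as PLSCR1 was, while TM7SF2 was 19.3 FPKM in wild type and 11.0 FPKM in the knockout.

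ISG15 (chromosome 1, 1001138 to 1014540, plus strand) encodes a ubiquitin-like protein that is joined to other proteins after interferon. Its day 0 level was 16.2 FPKM in wild type and 13.0 FPKM in the knockout (log2 ratio -0.30). It was the least abundant member at day 2, 4.99, 5.58 and 4.28 CPM in wild type and 6.77, 7.44 and 5.92 CPM in the knockout, from 129 to 271 reads per library. The genotypes did not overlap, and wild-type replicate 2 and knockout replicate 3 lay close to each other. The rise from 4.95 ± 0.651 to 6.71 ± 0.766 CPM (SD, n = 3) was 0.44 on the log2 scale (SE 0.1398, edgeR adjusted p 0.0198). ISG15 lost its call when wild-type replicate 3 or knockout replicate 2 was left out (edgeR adjusted p 0.119 and 0.0993), in a range of 0.0149 to 0.119 over 13 alternatives. A pseudogene on the other strand shares 36 exon bases with ISG15. Of the tested neighbours of ISG15, AGRN, 5583 bases away, and KLHL17 were called higher (0.44 and 0.33, edgeR adjusted p 2.39e-08 and 0.000127). The others, NOC2L, SAMD11 and C1orf159, did not pass (0.06, -0.07 and 0.0021, edgeR adjusted p 0.231, 0.281 and 0.986). Over all members, 34 other tested genes lay within 100000 bases, of which 8 were called higher and 2 lower. Among all genes tested, 12.3% were called higher and 11.0% lower.

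STAT2 (chromosome 12, 56341597 to 56360155, minus strand) is a transcription factor of the interferon-activated complex. It was 16.4 FPKM in wild type and 11.0 FPKM in the knockout at day 0 (log2 ratio -0.53), just short of 1.5-fold. At day 2, STAT2 was 29.6, 28.6 and 30.9 CPM in wild type and 30.8, 31.6 and 29.3 CPM in the knockout. The genotypes overlapped, and the gene did not pass (0.04, SE 0.063, edgeR adjusted p 0.661).

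IRF3 (chromosome 19, 49659569 to 49665875, minus strand), the transcription factor downstream of nucleic acid sensing, was 27.1 FPKM in wild type and 30.2 FPKM in the knockout at day 0 (log2 ratio 0.15). At day 2, IRF3 was 70.7, 72.5 and 72.7 CPM in wild type and 78.8, 78.2 and 80.0 CPM in the knockout. The genotypes did not overlap and the replicates differed little. The rise was small, 0.13 on the log2 scale (SE 0.043, edgeR adjusted p 0.0232). IRF3 lost its call when wild-type replicate 1, wild-type replicate 3 or knockout replicate 3 was left out (edgeR adjusted p 0.072, 0.0522 and 0.083), in a range of 0.0111 to 0.083 over 13 alternatives. IRF3 shares 734 exon bases with BCL2L12 on the other strand. Without a stated strand setting, reads in the shared bases cannot be told from those of BCL2L12, which did not pass (-0.01, edgeR adjusted p 0.854).

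B2M (chromosome 15, 44711487 to 44718877, plus strand) encodes the light chain of MHC class I molecules, which show viral peptides to T cells. Its day 0 level was 30.1 FPKM in wild type and 22.7 FPKM in the knockout (log2 ratio -0.39). At day 2, B2M was 26.1, 24.7 and 27.1 CPM in wild type and 21.7, 26.2 and 24.8 CPM in the knockout. Knockout replicate 1 was the lowest of the 6, the others overlapped, and the gene did not pass (-0.10, SE 0.073, edgeR adjusted p 0.338).

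**Figure D2:**
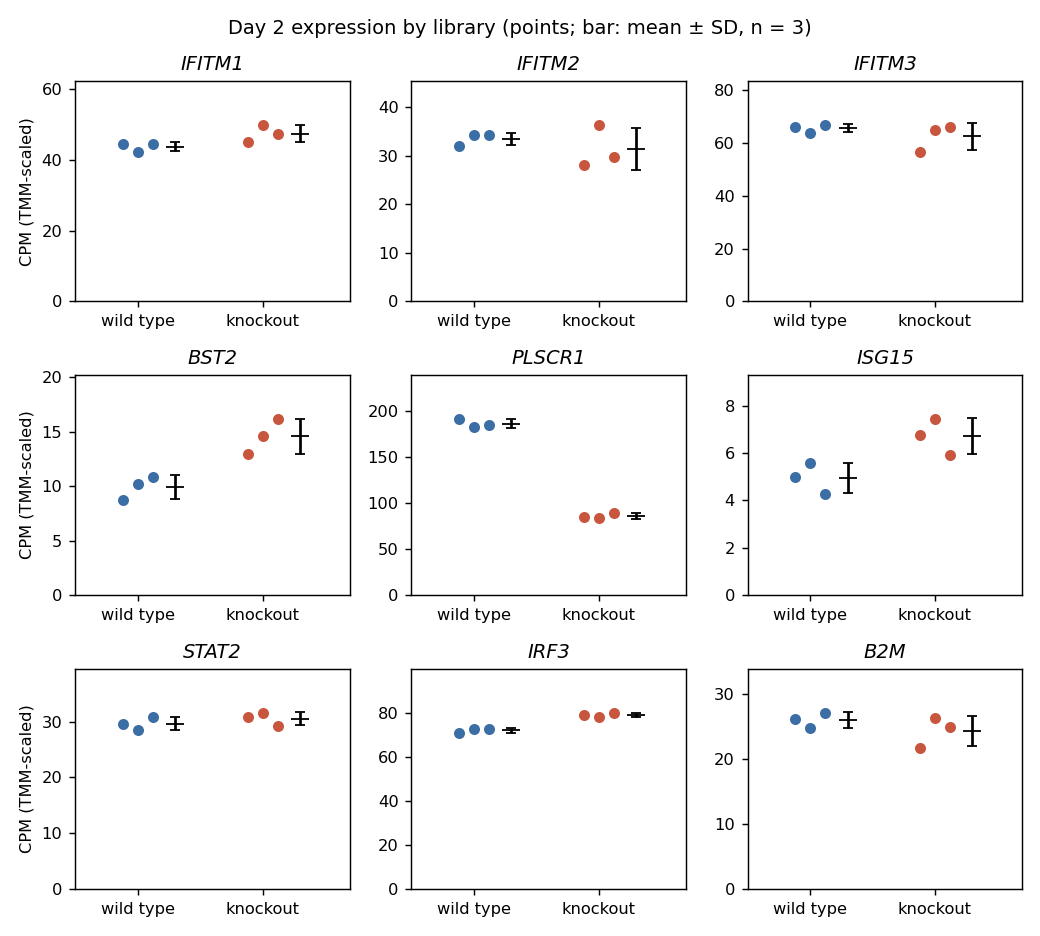
Day 2 level of the 9 genes in TMM-scaled CPM, 1 point per library, with the mean and SD of 3 libraries per genotype (axes start at 0). PLSCR1 separates the genotypes widely, 182 to 191 against 83.4 to 89.5 CPM, BST2, ISG15, IRF3 and IFITM1 separate them narrowly, and IFITM2, IFITM3, STAT2 and B2M overlap.

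Of the 9 members, 3 were called higher and 1 lower at day 2, where 12.3% of all 11475 genes were called higher, 11.0% lower and 23.3% in either direction. Without wild-type replicate 3, 1 member was called higher, and without knockout replicate 2, 2 were called lower. In 5 members the genotypes did not overlap, where 37.7% of all genes did not. The median log2 fold change was 0.04 over the members and -0.0026 over all genes. In bulk RNA, fewer cells of a type and less RNA per cell cannot be told apart, so each value is a level over the whole culture. Cell type markers moved with genotype, in both directions within several lists. The pluripotency markers summed to 4512 to 4575 CPM in wild type and 4649.9 to 4688 CPM in the knockout, with 2 of 11 called higher and 2 lower, NANOG among the latter (-0.57, edgeR adjusted p 0.00127). The primitive streak and mesoderm markers summed to 3973 to 4028 CPM in wild type and 4046 to 4088 CPM in the knockout, with 3 of 9 higher and 4 lower, EVX1 among the latter (-0.81, edgeR adjusted p 5.45e-12). Of 6 definitive endoderm markers, 5 were tested and summed to 8360.3 to 8460.1 CPM in wild type and 9191 to 9354 CPM in the knockout, most of it CER1, which rose (0.17, edgeR adjusted p 8.92e-06), while SOX17 fell (-0.56, edgeR adjusted p 2.52e-13). Of 7 fibroblast and stroma markers, 5 were tested (DCN and COL3A1 were not tested at day 2) and summed to 390.1 to 413 CPM in wild type and 535 to 565 CPM in the knockout. COL1A2 made up most of that sum, 246 ± 5.40 and 359.6 ± 8.20 CPM, and COL1A1 and PDGFRB rose too, while LUM fell (-0.57, edgeR adjusted p 0.00773) and THY1 did not pass (0.11, edgeR adjusted p 0.101). Of 8 amnion and trophoblast markers, 5 were tested and summed to 78.8 to 79.5 CPM in wild type and 66.8 to 68.9 CPM in the knockout, with 3 called lower. Of 6 endothelial markers only TEK was tested, at 15.6 to 16.0 CPM in wild type and 23.1 to 27.3 CPM in the knockout. Ribosomal protein genes took 6.02% to 6.27% of counts in wild type and 5.39% to 5.96% in the knockout. Their part in the values of the members was not tested.

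Side by side, 4 members differed in sign between the days and did not overlap at day 2. BST2, IFITM1 and ISG15 were lower in the knockout at day 0 and higher at day 2, and PLSCR1 was higher at day 0 and lower at day 2. IRF3 was higher in the knockout on both days, and IFITM2, IFITM3 and B2M had the lower mean on both without passing at day 2. STAT2 also differed in sign (-0.53 at day 0 and 0.04 at day 2), with overlapping genotypes at day 2. At day 0, 7 of 9 members were lower in the knockout, where 53.8% of all genes were, and the median log2 ratio was -0.33 over the members and -0.03 over all genes. The day 0 values are ratios of FPKM and the day 2 values come from counts, and the difference between the days was not tested.

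**Figure D3:**
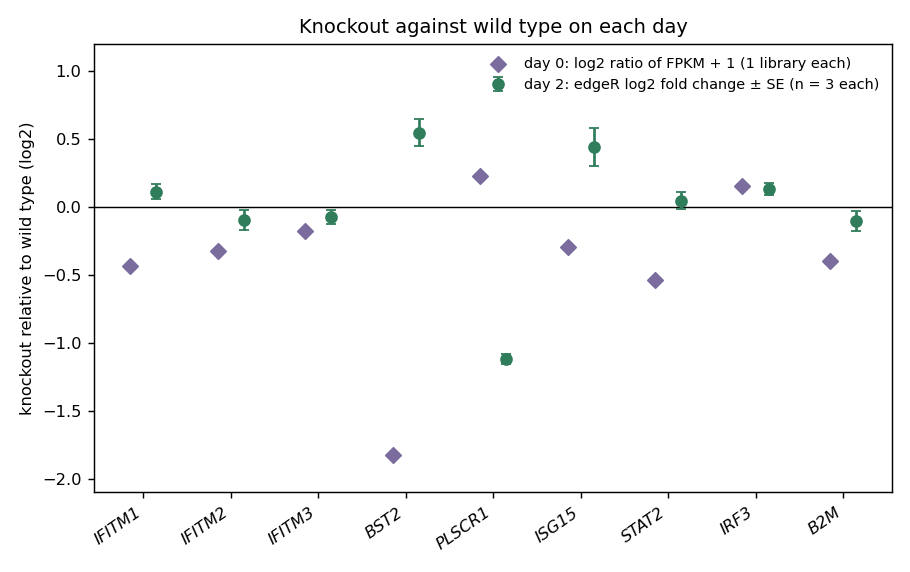
Knockout relative to wild type on the log2 scale for the 9 genes, as the day 0 ratio of FPKM + 1 (1 library each, no error) and the day 2 edgeR log2 fold change with its SE (n = 3 per genotype). BST2 goes from -1.82 at day 0 to 0.55 at day 2 and PLSCR1 from 0.23 to -1.12.

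The order of the members by level per length was taken within each day. In wild type at day 0 it was IFITM1, BST2, IFITM3, IFITM2, B2M, IRF3, STAT2, ISG15 and PLSCR1, from 278 to 12.9 FPKM. In wild type at day 2, in CPM per kilobase, it was PLSCR1, IFITM3 (54.1 ± 1.296, SD, n = 3), IFITM1 (42.1 ± 1.22), IFITM2 (31.6 ± 1.21), IRF3 (30.1 ± 0.476), B2M (10.9 ± 0.498), BST2 (9.73 ± 1.06), STAT2 (8.75 ± 0.347) and ISG15 (5.26 ± 0.691). In that order the libraries of IFITM2 and IRF3, of B2M and BST2, and of BST2 and STAT2 overlapped, and those of the other neighbours did not. In the knockout at day 2, IFITM3 and IFITM1, IRF3 and IFITM2, and B2M and STAT2 overlapped, and BST2 (14.3 ± 1.57) lay above B2M (10.2 ± 0.985). The day 2 orders rest on the merged exons of coding transcripts, 2378 bases for B2M and 1019 for BST2, and no other length was tried. The scales of the days differ, and the lengths behind the day 0 FPKM are not known. Neither the levels nor the orders can therefore be compared between the days.

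The rest of the pathway was read from 12 lists of 174 genes, with the members left out. At day 2, 98 of these were tested, 16 rose and 3 fell (median log2 fold change 0.04), where 12.3% of all genes tested were called higher and 11.0% lower, the shares to set beside each list below, and 5 fell with knockout replicate 1 left out. At day 0, 113 had at least 1 FPKM in a library, and 18 were at least 1.5-fold lower and 4 at least 1.5-fold higher in the knockout. Over all 13280 genes, 8.77% were that much lower and 4.81% that much higher. With a pseudocount of 5 FPKM, 6 were that much lower and 2 that much higher. At a minimum of 5 FPKM, 11 were that much lower. The shares over all genes were not taken at these settings, so these counts cannot be set beside 8.77% and 4.81%.

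Of 6 interferon receptor genes, all tested, 1 rose and none fell (median 0.11). IFNAR2, a chain of the type I receptor, rose from 4.03 ± 0.196 to 5.59 ± 0.355 CPM (0.47, edgeR adjusted p 0.0173), but lost its call without wild-type replicate 3 or knockout replicate 2 (edgeR adjusted p 0.0648 and 0.0696). The other chain, IFNAR1, was 21.9 ± 1.15 and 24.0 ± 0.916 CPM (0.13, edgeR adjusted p 0.184), and IFNGR1, of the interferon gamma receptor, 38.4 ± 0.176 and 37.2 ± 1.81 CPM (-0.05, edgeR adjusted p 0.609). None of the 10 tested JAK-STAT transducers and interferon regulatory factors passed edgeR (median -0.02), DESeq2 or limma-voom, and 4 had an unadjusted edgeR p under 0.05. One by one, leaving out wild-type replicate 2 gave 1 higher call, and leaving out knockout replicate 1 or 2 gave 1 lower call. STAT3 was 71.7 ± 2.24 and 73.2 ± 3.94 CPM (0.03, edgeR adjusted p 0.682), with a value of -0.01 without knockout replicate 1.

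Of 14 tested nucleic acid sensors and adaptors, 2 rose and none fell (median 0.0062). IFI16, a sensor of DNA, rose from 45.7 ± 3.46 to 65.8 ± 1.2003 CPM (0.53, SE 0.053, edgeR adjusted p 3.04e-09). CGAS, listed as MB21D1, the DNA sensor that makes cyclic GMP-AMP, rose from 17.9 ± 0.737 to 21.1 ± 1.34 CPM (0.23, edgeR adjusted p 0.0246). MB21D1 lost its call without wild-type replicate 1, wild-type replicate 2 or knockout replicate 3 (edgeR adjusted p 0.0738, 0.0768 and 0.116). ADAR, which edits double-stranded RNA, was 477 ± 9.81 and 456 ± 8.53 CPM (-0.07, edgeR adjusted p 0.122, or 0.0288 without knockout replicate 1), and MAVS, the adaptor of RNA sensors, 140.0 ± 2.66 and 134 ± 5.65 CPM (-0.06, edgeR adjusted p 0.265). At day 0, the adaptor MYD88 was 2.40 FPKM in wild type and 6.40 FPKM in the knockout, and the kinase TBK1 7.28 FPKM in wild type and 10.6 FPKM in the knockout.

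Of 40 listed inducible interferon-stimulated genes, 12 were tested at day 2, and 4 rose and none fell (median 0.20). OAS3, which makes the second messenger of RNase L, was 7.81, 7.07 and 7.07 CPM in wild type and 11.6, 11.3 and 11.0 CPM in the knockout. The genotypes did not overlap (0.63, SE 0.106, edgeR adjusted p 2.87e-05). OAS1, of the same family, rose from 12.8 ± 0.221 to 16.5 ± 0.403 CPM (0.36, edgeR adjusted p 0.0014). MX2, a restriction factor of the dynamin family, rose from 1.90 ± 0.314 to 3.11 ± 0.806 CPM (0.73, edgeR adjusted p 0.0121), but lost its call without wild-type replicate 3 or knockout replicate 1 (edgeR adjusted p 0.0701 and 0.121). The secreted protein LGALS3BP rose from 20.5 ± 2.39 to 25.0 ± 1.03 CPM (0.28, edgeR adjusted p 0.00638, or 0.0903 without wild-type replicate 3). With wild-type replicate 3 left out, 2 of the 12 rose. PARP14 was 16.4 ± 1.43 and 18.9 ± 1.23 CPM (0.21, edgeR adjusted p 0.0682), and passed without knockout replicate 2 (0.0346) and with upper-quartile scaling (0.0488). PML was 23.4 ± 1.92 and 22.2 ± 1.46 CPM (-0.08, edgeR adjusted p 0.495).

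At day 0, 18 of the inducible genes had at least 1 FPKM, with a median log2 ratio of -0.22, and 6 were at least 1.5-fold lower and 2 at least 1.5-fold higher in the knockout. LGALS3BP was 28.96 FPKM in wild type and 10.01 FPKM in the knockout (-1.44), and IFI30, a lysosomal thiol reductase, 24.9 FPKM in wild type and 12.7 FPKM in the knockout (-0.92). MX2 was 6.31 FPKM in wild type and 2.94 FPKM in the knockout. LGALS3BP and MX2 thus had the lower value in the knockout at day 0 and the higher one at day 2, as BST2 and ISG15 did. Among the other genes of the list tested at day 2 and with at least 1 FPKM at day 0, so did PARP14 and IFIT5. TRIM21 and SP110 were higher in the knockout on both days, and HERC5 and PML were higher at day 0 and lower at day 2. None of these other genes passed edgeR at day 2.

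Of 17 tested intrinsic restriction factors, 3 rose and none fell at day 2 (median 0.05). TRIM5, which binds retroviral capsids, rose from 54.0 ± 1.33 to 67.0 ± 0.251 CPM (0.31, SE 0.047, edgeR adjusted p 6.66e-06). SERINC5, a membrane protein that lowers retroviral infectivity, rose from 209 ± 7.74 to 234 ± 7.57 CPM (0.16, edgeR adjusted p 0.000652). TRIM56 rose from 17.5 ± 0.664 to 20.8 ± 0.850 CPM (0.25, edgeR adjusted p 0.0122, or 0.0518 without wild-type replicate 3). ZC3HAV1, the zinc finger antiviral protein, was 239.9 ± 1.99 and 245 ± 5.75 CPM (0.03, edgeR adjusted p 0.515), and SERINC3 167 ± 4.70 and 167 ± 6.83 CPM (0.0035, edgeR adjusted p 0.96). The sign of SERINC3 turned without wild-type replicate 2 (-0.02) or knockout replicate 2 (-0.03). At day 0, 5 of 19 were at least 1.5-fold lower and none that much higher. APOBEC3B, a cytidine deaminase, was 17.0 FPKM in wild type and 6.90 FPKM in the knockout (-1.19), and SAMHD1, a dNTP hydrolase, 18.1 FPKM in wild type and 11.3 FPKM in the knockout (-0.64).

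Of 5 tested genes of ISG15 conjugation, 1 rose and none fell (median 0.02). UBE2L6, the conjugating enzyme of ISG15, rose from 11.3 ± 1.62 to 14.5 ± 0.689 CPM (0.36, edgeR adjusted p 0.0064, or 0.0658 without wild-type replicate 1). At day 0, UBE2L6 was 53.2 FPKM in wild type and 41.5 FPKM in the knockout. ARIH1 and TRIM25, ligases of the pathway, were 96.7 ± 1.60 and 98.1 ± 4.21 CPM (0.02, edgeR adjusted p 0.768) and 13.4 ± 1.57 and 13.1 ± 0.647 CPM (-0.04, edgeR adjusted p 0.806, turning to 0.06 without wild-type replicate 3). None of 9 tested genes of MHC class I antigen presentation passed edgeR at day 2 (median -0.02), where 2 had an unadjusted p under 0.05. DESeq2 called 0 of them and limma-voom 1, the immunoproteasome subunit PSMB10, as lower. PSMB10 was near the floor, 0.899 ± 0.101 CPM in wild type and 0.469 ± 0.182 CPM in the knockout (-0.92, edgeR adjusted p 0.066). There was also 1 lower call in edgeR at a mean of at least 1 CPM. PSMB10 did not reach that mean, so the call was of another gene. In edgeR with wild-type or knockout replicate 1 left out, there was 1 lower call each. CALR, a chaperone of the class I loading complex, was 1100.3 ± 8.51 and 1142 ± 16.3 CPM (0.05, edgeR adjusted p 0.185), and its partner PDIA3 646 ± 8.91 and 645 ± 18.6 CPM (-0.0031, edgeR adjusted p 0.957). At day 0, 10 of 14 genes of that list had the lower value in the knockout. HLA-B, a class I heavy chain, was 11.9 FPKM in wild type and 6.41 FPKM in the knockout (-0.80), the only one at least 1.5-fold lower, and CALR 278 FPKM in wild type and 404 FPKM in the knockout (0.54).

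Of 13 negative regulators of JAK-STAT signalling, all tested, 1 rose and 3 fell at day 2 (median 0.02). SOCS2, a suppressor of cytokine signalling, fell from 48.2 ± 1.32 to 36.9 ± 2.35 CPM (-0.39, SE 0.057, edgeR adjusted p 3.41e-06). The SUMO ligase PIAS4 fell from 53.6 ± 0.659 to 46.3 ± 1.58 CPM (-0.21, edgeR adjusted p 0.00244). So did the phosphatase PTPN2, from 56.3 ± 1.26 to 50.6 ± 1.46 CPM (-0.15, edgeR adjusted p 0.0252). PTPN2 lost its call without wild-type replicate 3, knockout replicate 1 or knockout replicate 3 (edgeR adjusted p 0.112, 0.0653 and 0.0758). SOCS3, induced by STAT3, rose from 94.1 ± 3.13 to 106 ± 3.87 CPM (0.17, edgeR adjusted p 0.00203). SOCS1, which blocks JAK kinases, was 81.6 ± 6.32 and 87.6 ± 1.41 CPM (0.10, edgeR adjusted p 0.114, or 0.0149 without wild-type replicate 3). At day 0, SOCS1 was 6.50 FPKM in wild type and 13.5 FPKM in the knockout, and SOCS2 10.6 FPKM in wild type and 4.13 FPKM in the knockout, so SOCS2 had the lower value in the knockout on both days.

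Of 10 tested NF-kappaB components and targets, 2 rose and none fell (median 0.07). The adhesion molecule ICAM1 rose from 3.36 ± 0.152 to 5.24 ± 0.144 CPM (0.64, edgeR adjusted p 0.00227), the inhibitor NFKBIA from 145 ± 3.68 to 158 ± 2.97 CPM (0.12, edgeR adjusted p 0.0119). NFKBIA lost its call without wild-type replicate 2 or knockout replicate 3 (edgeR adjusted p 0.0922 and 0.0678). RELA, a transcription factor subunit, was 24.2 ± 0.385 and 26.02 ± 1.71 CPM (0.11, edgeR adjusted p 0.274), and NFKB2, another, 21.7 FPKM in wild type and 14.7 FPKM in the knockout at day 0. Of 6 tested scramblases, flippases and their partners, 2 rose and none fell (median 0.08), while PLSCR1 fell. PLSCR4, a paralog of PLSCR1, rose from 10.6 ± 0.783 to 13.7 ± 0.535 CPM (0.38, edgeR adjusted p 0.00312), the flippase ATP11A from 178 ± 5.54 to 205 ± 4.31 CPM (0.21, edgeR adjusted p 2.31e-05). TMEM30A, the flippase subunit, was 152 ± 5.51 and 152 ± 2.49 CPM at day 2 (-0.0033, edgeR adjusted p 0.962) and 43.2 FPKM in wild type and 23.7 FPKM in the knockout at day 0. Exons of IFNAR2, MB21D1 (CGAS), OAS1, TRIM5, SERINC5, SOCS2 and ICAM1 overlap those of another annotated gene, which makes their values uncertain. The same holds for TBK1, IFI30, SP110, APOBEC3B, SAMHD1, ARIH1, TRIM25, HLA-B, CALR, PDIA3 and RELA. No gene of the lists of interferon ligands and of other IFITM genes was tested at day 2. None was found by name among the day 0 genes either, so their levels are not known.

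**Figure D4:**
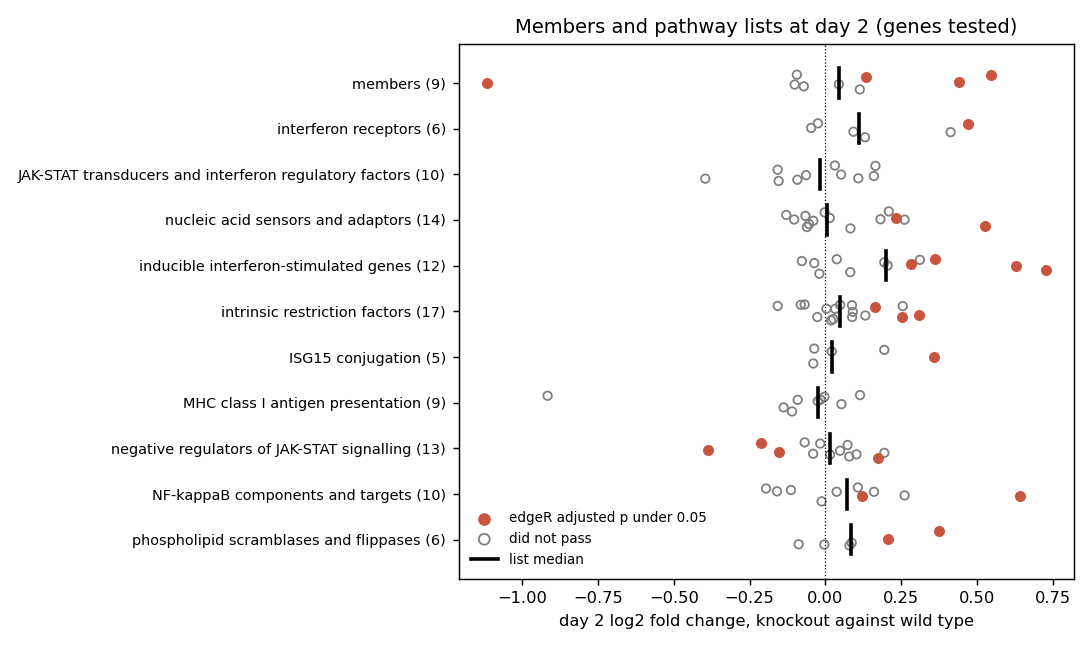
Day 2 log2 fold change of each tested gene, knockout against wild type, for the members and the 10 lists with tested genes (filled: edgeR adjusted p under 0.05, open: not passed, bar: median). PLSCR1 at -1.12 lies to the left of all other genes shown, and the filled points of the inducible genes all lie above 0.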

How the data were processed

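Genotype, day and replicate number of the 8 libraries came from the sample labels. The submitters' processing notes name HISAT2, StringTie and GRCh38 (hg38). No source used here states the counting tool, strand setting, annotation or gene filter. The deposited day 2 table holds counts, and the deposited day 0 table holds FPKM, per the file headers. An unheaded column of 434 gene names in the latter was not used.

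Counts were filtered with filterByExpr, scaled by TMM and tested with edgeR 4.0.16 in R 4.3.3 (robust quasi-likelihood, 2-sided, genotype alone). The SE of an edgeR log2 fold change was taken as its absolute value divided by the square root of the quasi-likelihood F statistic. Genes were called at a Benjamini-Hochberg adjusted p under 0.05 over all 11475. The procedure was tested on simulated counts. For day 0, log2 ratios of FPKM + 1 were taken over the 13280 genes with at least 1 FPKM in a library, untested. GENCODE 29 gave positions, overlaps and exon lengths, and RefSeq the promoters. The naming rule took all members, SETD7, the 5 genes most like the member of smallest p and, per list, up to 4 called genes of smallest p, 2 uncalled genes of highest CPM and 2 genes of at least 5 FPKM with the largest day 0 ratio. Of the last 2 kinds, some are left unnamed, and 1 gene is not reported here. Overlapping or neighbouring genes, cell type markers, PSMB10, IFIT5, TRIM21, SP110 and HERC5 were named after their values were seen. Members and lists were chosen with earlier results of these data known. Alternatives were other scalings and filters, DESeq2 1.42.0, limma-voom (limma 3.58.1), a replicate block and leaving out each library, and at day 0 other pseudocounts, filters and centring.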

Additional observations from a re-analysis of the deposited data

Results flagged for a closer look

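For 4 members the knockout difference at day 0 had the opposite sign to that at day 2, where all 3 libraries of each genotype lay apart; the difference between the days was not tested, since day 0 has 1 library per genotype in another unit. BST2 had a log2 ratio of -1.82 at day 0 and a log2 fold change of 0.55 at day 2. PLSCR1 had 0.23 and -1.12, ISG15 -0.30 and 0.44, and IFITM1 -0.44 and 0.11, the last without passing edgeR at day 2.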

How the results depend on the processing

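Over the 6 fits that each left out a library, the log2 fold change ran from 0.074 to 0.15 for IFITM1, -0.21 to -0.014 for IFITM2, -0.11 to 0.0013 for IFITM3 (turning sign without knockout replicate 1), 0.12 to 0.14 for IRF3 and 0.34 to 0.54 for ISG15. In the same fits 1 to 4 members were called higher (1 without wild-type replicate 3) and 1 to 2 lower (2 without knockout replicate 2), and 2 to 5 list genes lower (5 without knockout replicate 1). The uncalled list genes PDIA3 (-0.0204 to 0.0221), SERINC3 (-0.0269 to 0.0369), STAT3 (-0.012 to 0.0589), TMEM30A (-0.021 to 0.0264) and TRIM25 (-0.11 to 0.0558) also turned sign. With upper-quartile scaling PDIA3 was at 0.0126 and TMEM30A at 0.0123. The IFITM sum stood at -0.0162, against a positive value for IFITM1 alone. The cause of these shifts was not tested. At day 0, 6 list genes were lower and 2 higher with a pseudocount of 5 FPKM, which shrinks ratios of low genes. At a minimum of 5 FPKM, where fewer genes are compared, 11 were lower. The shares over all genes at these settings were not taken. Deviations of same-numbered libraries from their genotype mean correlated weakly, at -0.0695, -0.0743 and -0.0381. Those of differently numbered libraries across genotypes correlated at 0.00894 to 0.0612. These values cannot tell whether same-numbered libraries were paired by culture or batch. With the replicate block, 2210 genes were called, 3 members higher and 1 lower, IRF3 at an edgeR adjusted p of 0.0495, and 1 named gene lost its call (PTPN2, 0.0523). The depth limits ISG15 most, at 129 to 271 reads per library.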
